A study of Mus musculus with 6 samples.

Results

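The locus described here is a stretch of mouse chromosome 4 that holds Gm49890, the RNA inside which the microRNA gene Mir31 lies, and its neighbours Klhl9, Mtap, Cdkn2a, Cdkn2b and Dmrta1. These 7 genes were taken by name from the 26969 rows of the gene table. The locus was chosen by the counts of Gm49890, which were 0 in each library of one group and above 100 in each library of the other, so for Gm49890 that contrast is described and not tested. The neighbours belong to the locus by position.

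Poly(A) RNA was sequenced from chondrocytes, the cells of cartilage, of wild-type mouse genotype, in 3 libraries described as mAC_Mito and 3 described as mAC. The study compared chondrocytes given mitochondria, which its title ascribes to osteocytes, with chondrocytes that were not. The labels disagree on which group is which, because the mAC_Mito samples have vehicle in their title and treatment entry and the mAC samples have mitochondria there. The groups are therefore named by the description, differences are mAC_Mito over mAC, and no direction is read as an effect of mitochondria. Nothing in the labels gives age, sex, passage or separate cultures, so p-values measure a spread between samples that may be technical. Total counts ran from 59116068 to 68378213 a library. All 8 chondrocyte markers listed, among them Col2a1, Acan and Sox9, were present, and their FPKM (fragments scaled by the length of the gene and the depth of the library) summed to 1630 to 2588 in mAC_Mito and 1782 to 2067 in mAC. Epithelial, endothelial and osteoblast or osteocyte markers did not reach 1 FPKM in any library. Markers of 4 other types were also counted, with sums that overlapped between the groups. Fibroblast markers summed to 442 to 764 FPKM in mAC_Mito and 433 to 549 in mAC. Macrophage and leukocyte markers summed to 65.6 to 108 in mAC_Mito and 59.6 to 76.1 in mAC. Most of this was Lyz2 (49 to 96.4 over all libraries), and Cd68 was at 5.77 to 9.59 over all libraries. Ptprc stayed under 0.1, and Adgre1 and Csf1r reached 1 FPKM only in mAC_Mito 3. Skeletal muscle markers summed to 21.2 to 25.7 in mAC_Mito and 15.1 to 23.2 in mAC, mostly Acta1, and 3 of 5 reached 1 FPKM. Adipocyte markers summed to 63.7 to 80.5 in mAC_Mito and 45.8 to 78.1 in mAC. The extraction protocol in the labels speaks of adipose RNA and names no cartilage. The part of these cell types in the results below was not tested, and fewer cells of a type and less RNA per cell cannot be told apart.

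MicroRNAs are cut from longer RNAs as hairpins and guide Argonaute proteins to messages that pair with a short seed near their 5′ end. The host RNA of miR-31 lies close to the Cdkn2a gene in mouse and in human. In human cells the host has been reported to act with Polycomb proteins at CDKN2A. Cdkn2a encodes an inhibitor of the cyclin D kinases CDK4 and CDK6, and, from another first exon read in a different frame, ARF, which restrains MDM2 and so stabilises p53. Cdkn2b encodes a second inhibitor of the same kinases. All of these products are known for holding cells in cell cycle arrest and senescence.

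The sequences of miR-31 are shown because they define what the locus makes and which messages it could pair with. In the mature forms the capitals mark the seed, bases 2 to 8, and in the hairpin they mark the 2 mature forms. All are from RefSeq on GRCm38.p6, minus strand, with the hairpin at chr4:88910557-88910662.
mmu-miR-31-5p: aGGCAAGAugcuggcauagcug
mmu-miR-31-3p: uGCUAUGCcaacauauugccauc
Mir31 hairpin: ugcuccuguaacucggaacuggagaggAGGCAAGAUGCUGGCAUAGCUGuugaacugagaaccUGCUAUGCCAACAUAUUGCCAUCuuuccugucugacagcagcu
Of 1738 mature mouse miRNAs in the RefSeq table, miR-31-5p was the 1 with this seed.

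Gm49890 (ENSMUSG00000117123, GRCm38, chr4:88909855-88938521, minus strand) is annotated as a lincRNA with 1 transcript of 3 exons and 1087 bases. Its exons are 125, 106 and 856 bases long, and the whole 106-base Mir31 hairpin lies inside exon 3, at 88909855 to 88910710. Mir31 is thus exonic. It was the only other row of the table that overlapped Gm49890, on the same strand, and GENCODE M21 has no gene on the opposite strand there. RefSeq places the start of the RNA at 88942042, which is 3521 bases upstream of the start used in the table.

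Gm49890 was counted in every mAC_Mito library and listed at 0 in every mAC library. Its level was 2.07, 1.76 and 2.77 FPKM in mAC_Mito 1, 2 and 3 (172, 130 and 210 counts), against 0 counts in each of mAC 1, 2 and 3. The groups did not overlap, and the 3 mAC_Mito libraries had a mean of 2.2 ± 0.518 FPKM (SD, n = 3), a coefficient of variation of 23.6%. A count of 0 allows up to 0.0507, 0.0439 and 0.0481 CPM (counts scaled to the library total) in mAC 1, 2 and 3, taking 3 counts as the limit. This covers counting error only, and not how reads were assigned to rows. Against the highest of these limits, that of mAC 1, the mAC_Mito mean of 2.76 CPM was at least 54.4-fold higher by the listed counts. Of the 17645 genes tested by edgeR's quasi-likelihood test, 0.0113% passed an adjusted p of 0.05 (0.00567% higher in mAC_Mito and 0.00567% lower). The FPKM of the groups did not overlap in 7.31% (3.76% higher in mAC_Mito and 3.54% lower). Gm49890 is counted in both, and since its counts chose the locus nothing is read from that.

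The Mir31 row did not carry a usable count. It listed 1 count in all 6 libraries, yet its FPKM was 0.0869, 0.000962 and 0.000244 in mAC_Mito 1, 2 and 3, against 0.0892, 0.102 and 0.0176 in mAC 1, 2 and 3. Multiplied back by the 106 bases of the hairpin and the depth of each library, these levels correspond to 0.703, 0.0069 and 0.0018 of a read in mAC_Mito and 0.667, 0.853 and 0.133 of a read in mAC. The groups overlapped, and every library was under 1 read. The deposited counts behave as fractional assignments rounded up: at least 99.6% of the 721 to 778 rows with 1 transcript and 1 count in a library had an FPKM worth less than 1 read. A count of 1 can then mean any amount above 0. Of 591 miRNA rows in the table, 137 likewise listed 1 count in all 6 libraries and 351 never exceeded 1. Mature miRNAs are too short and lack the poly(A) tail that these libraries select, so no level of miR-31 itself can be read from them. The host gave 171, 129 and 209 reads by the same calculation in mAC_Mito 1, 2 and 3, in step with its 172, 130 and 210 counts, and 0 in mAC. Its 0 in mAC is the value listed. The hairpin row inside its exon 3 held fractions of a read in all 3 mAC libraries, and how reads were divided between these rows was not tested.

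**Figure D1:**
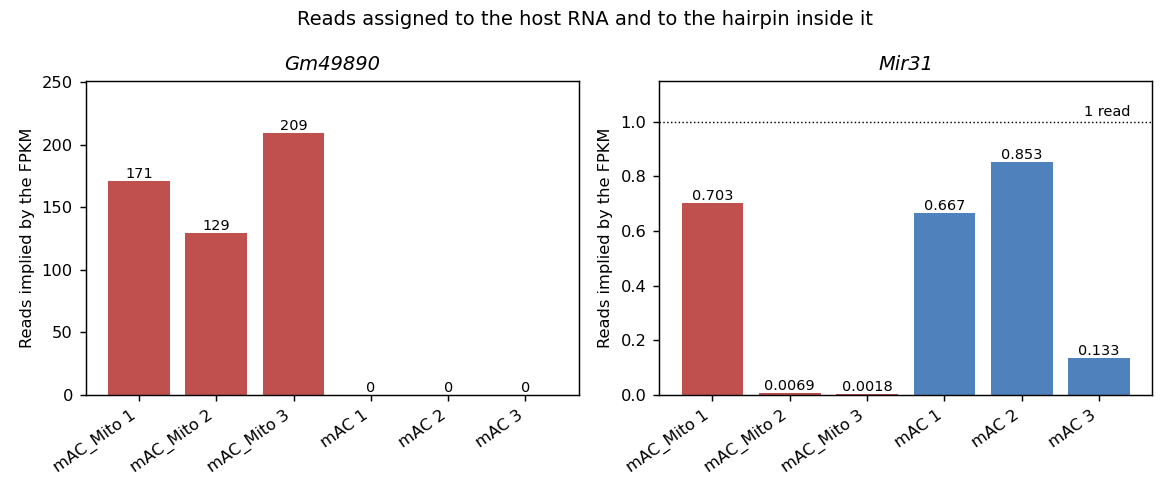
Reads implied by the deposited FPKM, gene length and depth for Gm49890 (left) and the Mir31 hairpin inside its exon 3 (right), with 1 bar for each library and the dotted line at 1 read. The host has 129 to 209 reads in mAC_Mito and 0 in mAC, while the hairpin stays under 1 read in all 6 libraries.

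A listed 0 beside well-counted libraries was rare in the table. Among 14131 rows with a mean of at least 50 counts, 15 (0.106%) were at 0 in at least 1 library. Gm49890 is among them by the choice of the locus, and reaches that mean through mAC_Mito only, so nothing is read from its place there. Several of the others are annotated as nonsense-mediated decay transcripts, such as Gm20716, with 0, 3075 and 0 counts in mAC_Mito 1, 2 and 3 and 2335, 3883 and 3401 in mAC 1, 2 and 3. Gm49510, annotated as protein coding, was at 0 in every mAC library too, with 460, 0 and 405 counts in mAC_Mito 1, 2 and 3. Gm20716 and Gm49510 were named after their values were seen. The combination of 0 counts in all 3 libraries of one group and at least 10 in each library of the other was met by 2 genes that were at 0 in mAC and by 1 that was at 0 in mAC_Mito. The second gene at 0 in mAC was Pnliprp2, which encodes a pancreatic lipase-related protein, with 33, 17 and 17 counts in mAC_Mito 1, 2 and 3. The gene at 0 in mAC_Mito was Igsf1, an immunoglobulin superfamily membrane protein, with 21, 12 and 12 counts in mAC 1, 2 and 3. By the root mean square difference of centred log2 CPM over the 6 libraries, the tested gene most like Gm49890 was Pnliprp2 (1.47), followed by Gng3 (1.77), Gm20605 (1.85), Tmem200c (1.86) and Adgrl4 (1.96). Apart from Gm20605, with 779 to 1488 counts in mAC_Mito and 49 to 292 in mAC, these had at most 33 counts in a library.

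Other RNAs that host a microRNA in an exon give a scale for Gm49890. The table held 40 non-coding rows with a miRNA gene inside an exon on their strand, and 20 of them had a mean of at least 50 counts. Of these 20, 2 were at 0 in at least 1 library, where 0.106% of all rows with such a mean were. One was Gm49890, by the choice of the locus. It reaches that mean through mAC_Mito only, so nothing is read from its place there. The other was Mir17hg, host of the miR-17 to miR-92 cluster, with 107, 91 and 84 counts in mAC_Mito 1, 2 and 3, against 92, 0 and 249 in mAC 1, 2 and 3. Its 0 fell in a single library and its groups overlapped. The most abundant host was H19, whose exon carries miR-675, at 6925 to 10010 FPKM in mAC_Mito and 7328 to 9497 in mAC. Mir22hg, host of miR-22, was at 15, 20.5 and 16.5 FPKM in mAC_Mito 1, 2 and 3, against 14.6, 16.6 and 20.7 in mAC 1, 2 and 3. Gm49890 at 1.76 to 2.77 FPKM in mAC_Mito was thus in the range of hosts such as Gm11613, at 2.38 to 2.79 FPKM in mAC_Mito and 2.21 to 2.44 in mAC.

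**Figure D2:**
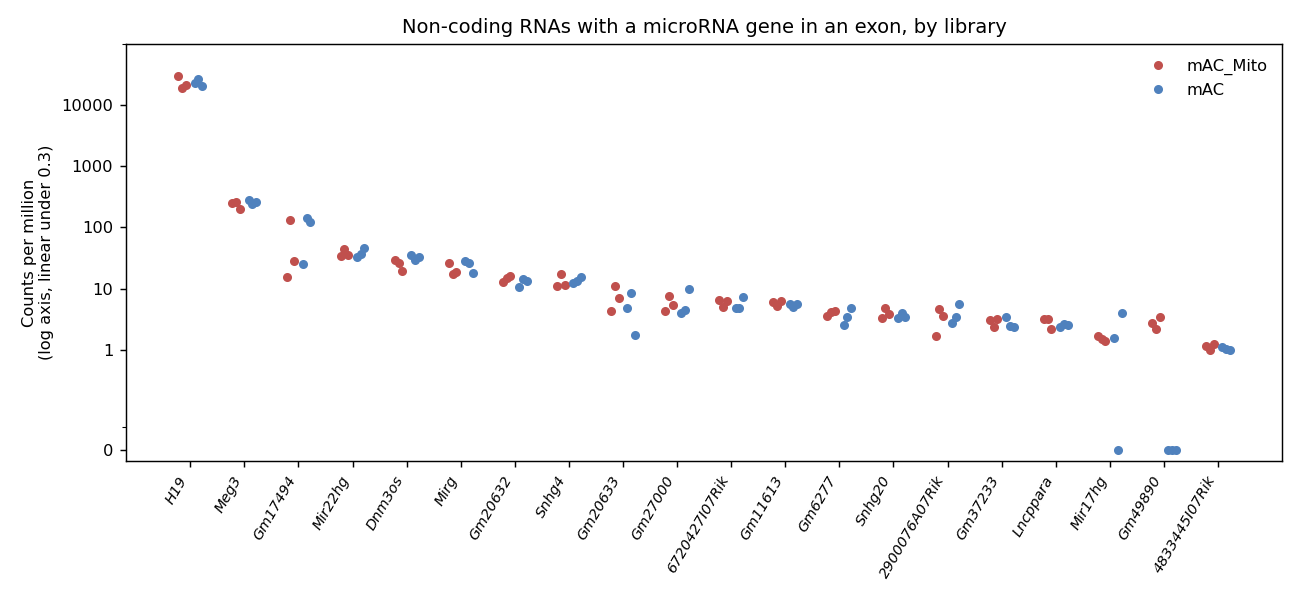
Level in CPM of the 20 non-coding RNAs with a microRNA gene in an exon and a mean of at least 50 counts, 1 point for each library, mAC_Mito in red and mAC in blue, on an axis that is logarithmic above 0.3. Gm49890 lies at 0 in the 3 mAC libraries, and Mir17hg lies at 0 in 1 of them.

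The promoter of Gm49890 is shown beside that of Cdkn2a because the first belongs to the RNA that was listed at 0 in one group and the second to the neighbour counted in all 6 libraries. Each runs from 250 bases before to 50 after the RefSeq start (GRCm38.p6), at chr4:88941993-88942292 and chr4:89294570-89294869, both minus strand, with CG dinucleotides in capitals. For Gm49890 that start lies 3521 bases upstream of the start of the model that was counted.
Gm49890 promoter: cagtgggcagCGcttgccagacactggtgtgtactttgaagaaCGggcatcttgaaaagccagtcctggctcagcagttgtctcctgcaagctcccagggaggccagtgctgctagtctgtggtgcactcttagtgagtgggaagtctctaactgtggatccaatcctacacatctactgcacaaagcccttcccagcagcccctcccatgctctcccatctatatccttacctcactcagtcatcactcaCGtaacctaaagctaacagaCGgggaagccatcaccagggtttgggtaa
Cdkn2a upstream promoter: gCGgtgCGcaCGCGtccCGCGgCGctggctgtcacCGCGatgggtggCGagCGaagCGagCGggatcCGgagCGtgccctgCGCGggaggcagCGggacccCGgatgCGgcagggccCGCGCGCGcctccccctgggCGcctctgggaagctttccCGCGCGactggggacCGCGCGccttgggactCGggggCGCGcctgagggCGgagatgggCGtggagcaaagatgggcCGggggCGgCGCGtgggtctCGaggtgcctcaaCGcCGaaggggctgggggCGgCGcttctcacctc
The Gm49890 window held 4 CG dinucleotides, and 68.6% of 32851 RefSeq promoters held as many or more. The upstream Cdkn2a window held 45, a number reached by 1.93% of promoters. The second Cdkn2a start had 12, and those of Klhl9, Cdkn2b, Mtap and Dmrta1 had 22, 18, 14 and 13. On either strand, the Gm49890 window held CCAAT 1 time, as 37.4% of promoters do at least once, and CANNTG 1 time (72.3% of promoters). It held no TGANTCA (7.81%), no GGGCGG (35.7%) and no TATAAA (13.6%). The CCAAT and CANNTG matches did not share a base. A match describes letters only.

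The FPKM of the groups overlapped for each neighbour of Gm49890, as for most genes (7.31% of all genes tested did not overlap). Of the 5 other members with enough counts to be tested, 0 passed an adjusted p of 0.05 in edgeR's quasi-likelihood test, where 0.0113% of all genes did. Each had an adjusted p of 0.99992, the lowest value over all genes tested besides those that passed. Neither DESeq2 nor limma called any of the 5. By edgeR none had an unadjusted p under 0.05, where 3.19% of all genes did. Mir31 did not pass the filter on low counts. From the annotated start of Gm49890, the start of Klhl9 lies 216 kb away on one side, and those of Mtap, Cdkn2a, Cdkn2b and Dmrta1 lie 199, 356, 373 and 741 kb away on the other. In every library the order of FPKM was Mtap, Klhl9, Cdkn2b, Cdkn2a, then Gm49890 and Dmrta1 in mAC_Mito or Dmrta1 alone in mAC.

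**Figure D3:**
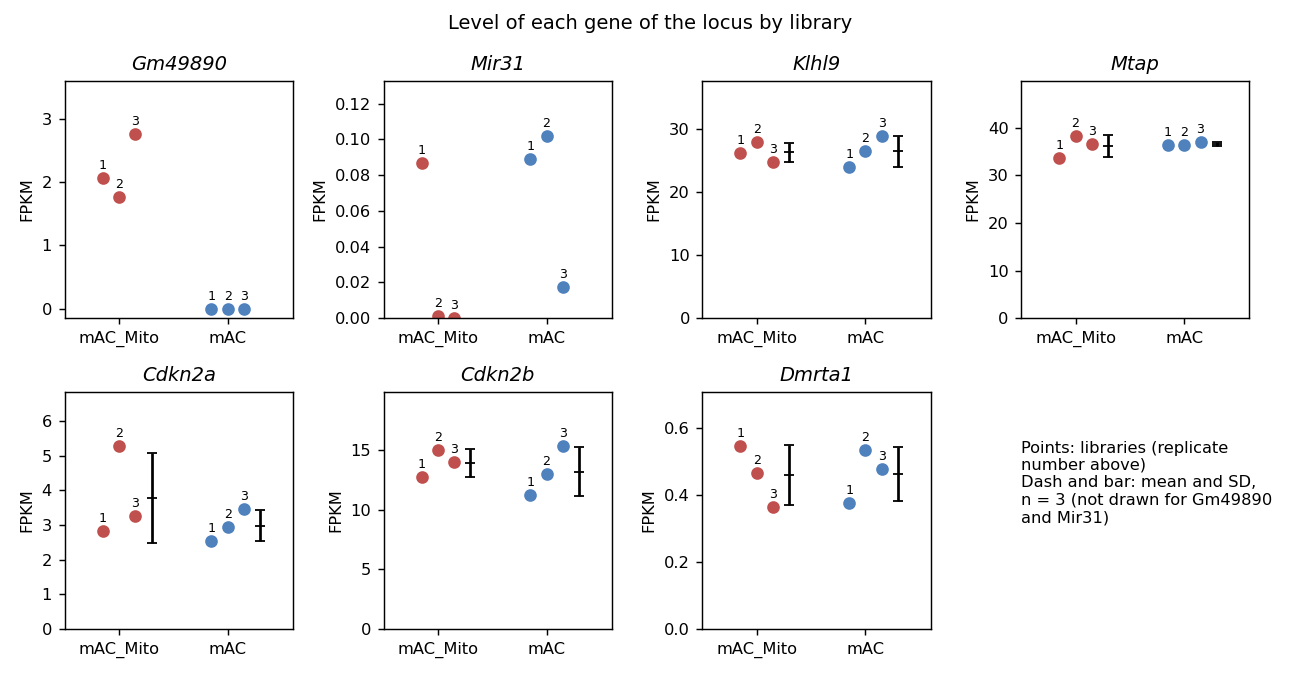
FPKM of the 7 genes in each library, mAC_Mito in red left of mAC in blue, with the replicate number above each point and, for 5 genes, the mean and SD (n = 3). Gm49890 separates the groups, at 1.76 to 2.77 FPKM in mAC_Mito against 0 in mAC, and the other 6 genes overlap.

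Among the cell cycle inhibitors, Cdkn2b (ENSMUSG00000073802, chr4:89306299-89311039, minus strand) was the more abundant. It was at 12.7, 15 and 14 FPKM in mAC_Mito 1, 2 and 3, against 11.2, 13.0 and 15.3 in mAC 1, 2 and 3. The mAC libraries spanned the whole mAC_Mito range. Its log2 fold change was 0.06 (95% interval -0.19 to 0.32, edgeR).

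Cdkn2a (ENSMUSG00000044303, chr4:89274471-89294653, minus strand) was at 2.83, 5.27 and 3.25 FPKM in mAC_Mito 1, 2 and 3, against 2.55, 2.94 and 3.46 in mAC 1, 2 and 3. One library, mAC_Mito 2, stood above the other 5, and the groups overlapped without it. The log2 fold change was 0.32 (95% interval -0.20 to 0.84, edgeR), and 0.04 without mAC_Mito 2. Relative to Cdkn2a, Cdkn2b was 2.84 times as abundant per length in mAC_Mito 2 and 4.32 to 4.50 times in the other 5 libraries, so the pair kept nearly 1 ratio outside that library. The same library had the highest sums of chondrocyte markers, 2588 FPKM, and of fibroblast markers, 764 FPKM, and their part in the Cdkn2a value was not tested. The 2 Cdkn2a transcripts in the table share an identical run of 578 bases, and the FPKM was computed over their merged exons, which span 1172 bases. The values for the kinase inhibitor and for ARF are therefore 1 number. Cdkn2a and Cdkn2b are related genes, but their longest identical run was 23 bases, well below the length of a fragment.

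The profiles nearest to Cdkn2a over the 6 libraries, by the same root mean square difference of log2 CPM, were those of Pgbd5 (0.0684), Dgke (0.0921), 4930579G18Rik (0.1), Nbea (0.103) and Lrp4 (0.104). In all 5 genes mAC_Mito 2 was the highest library, as for Cdkn2a. Dgke, a diacylglycerol kinase, was at 0.68, 1.26 and 0.797 FPKM in mAC_Mito 1, 2 and 3, against 0.686, 0.682 and 0.949 in mAC 1, 2 and 3. Nearest to Cdkn2b were Pex26 (0.015), Ndfip2 (0.0172), H3f3b (0.019), Ubfd1 (0.0211) and Cdc42se2 (0.0232), a set that includes the histone H3.3 gene H3f3b at 112 to 154 FPKM. All of these were lowest in mAC 1 and close to one another elsewhere, and a gene that varies little lies near many others on this measure.

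Mtap (ENSMUSG00000062937, chr4:89137122-89181081, plus strand), which encodes the phosphorylase that recovers methionine and adenine from methylthioadenosine, was the most abundant member. In human tumours it is often lost together with CDKN2A. It was at 33.7, 38.3 and 36.6 FPKM in mAC_Mito 1, 2 and 3, against 36.3, 36.4 and 37.0 in mAC 1, 2 and 3. The mAC libraries lay inside the range of mAC_Mito. Its log2 fold change was -0.04 (95% interval -0.24 to 0.16, edgeR).

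Klhl9 (ENSMUSG00000070923, chr4:88718292-88722465, minus strand) encodes a substrate adaptor of the CUL3 ubiquitin ligase that, in human cells, acts with KLHL13 on Aurora B in mitosis. It was at 26.1, 27.9 and 24.8 FPKM in mAC_Mito 1, 2 and 3, against 24.0, 26.5 and 28.9 in mAC 1, 2 and 3. The log2 fold change was -0.03 (95% interval -0.23 to 0.18, edgeR), and the groups overlapped. Dmrta1 (ENSMUSG00000043753, chr4:89679436-89694772, plus strand), a transcription factor with the DNA-binding domain of the doublesex family, was the lowest neighbour. It was at 0.546, 0.467 and 0.366 FPKM in mAC_Mito 1, 2 and 3, against 0.377, 0.536 and 0.479 in mAC 1, 2 and 3. Its log2 fold change of -0.02 had a wide 95% interval, -0.58 to 0.54 (edgeR), at 107 to 178 counts a library.

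Within 1 Mb on either side of Gm49890 the table held 40 rows, 9 of them with a mean of at least 1 FPKM. Of the 18 rows tested besides Gm49890, 7 had a log2 fold change above 0 and 11 below, with a median of -0.03 against 0.002 over all 17645 genes tested. By edgeR 0 of the 18 passed an adjusted p of 0.05 and 1 had an unadjusted p under 0.05, where 0.0113% and 3.19% of all genes did. DESeq2 and limma called 0 as well. The FPKM of the groups did not overlap in 3 of the 18 (7.31% of all genes tested), all lower in mAC_Mito. The 4 rows of at least 1 FPKM that are not members were Hacd4, Mrpl48-ps, Focad and Mllt3. Hacd4, a dehydratase of the family that elongates fatty acids, was at 9.21, 8.60 and 8.70 FPKM in mAC_Mito 1, 2 and 3, against 9.81, 9.40 and 9.47 in mAC 1, 2 and 3, which did not overlap. Its log2 fold change was -0.13 (95% interval -0.36 to 0.10, edgeR). Focad, the gene of focadhesin, was at 1.73 to 2.01 FPKM in mAC_Mito and 1.57 to 1.86 in mAC. Mllt3, a subunit of the super elongation complex, was at 0.974 to 1.16 FPKM in mAC_Mito and 1.13 to 1.3 in mAC, and the pseudogene Mrpl48-ps was at 2.27 to 3.72 in mAC_Mito and 2.64 to 3.38 in mAC.

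**Figure D4:**
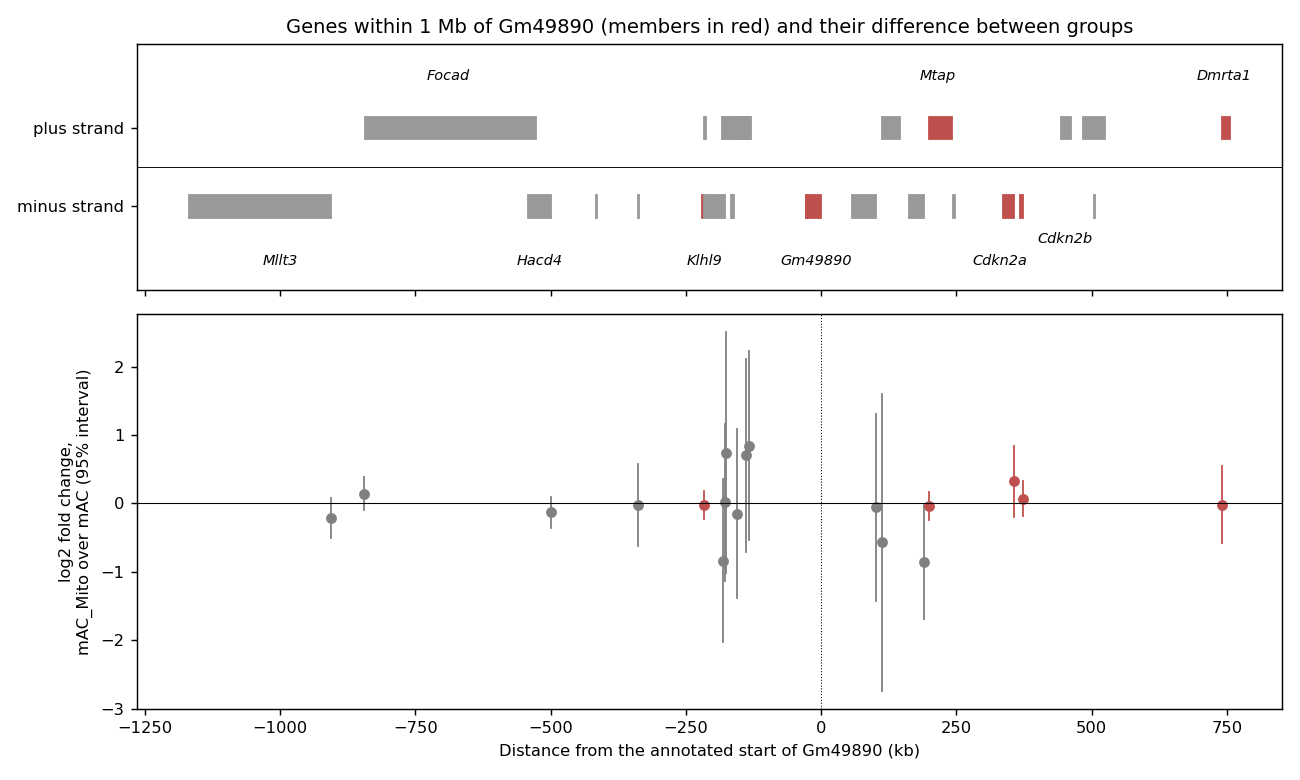
Top, genes within 1 Mb of Gm49890 by strand, with the members in red and position as the distance in kb from the annotated start of Gm49890. Bottom, log2 fold change of mAC_Mito over mAC with its 95% interval for the 18 other rows tested, drawn at each gene's start; the 5 tested neighbours among the members lie between -0.04 and 0.32, and Gm49890, at 0 in mAC, is not drawn.

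Closer to Gm49890, the long non-coding RNAs on its Cdkn2a side were low. Gm49891 was at 0.0994, 0.206 and 0.152 FPKM in mAC_Mito 1, 2 and 3, against 0.123, 0.0985 and 0.262 in mAC 1, 2 and 3. Wincr1, known in mouse as a Wnt-induced non-coding RNA, had 31, 50 and 0 counts in mAC_Mito 1, 2 and 3, against 17, 56 and 53 in mAC 1, 2 and 3, so it too was listed at 0 in a single library. Gm12602, named after its values were seen, was at 0.443, 0.748 and 0.327 FPKM in mAC_Mito 1, 2 and 3, against 0.780, 0.988 and 0.983 in mAC 1, 2 and 3. Its groups did not overlap and its log2 fold change was -0.85 (95% interval -1.69 to -0.02, unadjusted p = 0.0465, adjusted p = 0.99992, edgeR). On the Klhl9 side, 20 rows lie between Klhl9 and Gm49890, and none exceeded 46 counts in a library. Genes of the type I interferon family lie on this side, whose counts are uncertain because reads may be shared with close copies, which was not tested. Of these, Ifnz had 13, 17 and 26 counts in mAC_Mito 1, 2 and 3, against 25, 16 and 22 in mAC 1, 2 and 3. Ifnb1, interferon beta, which lies beyond Klhl9 and not among those 20 rows, had 10 counts in mAC_Mito 1 and 0 in the other 5 libraries.

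The pathways in which the members act were described from 7 gene lists holding 72 tested genes. By edgeR 0 of the 72 passed an adjusted p of 0.05 and 2 had an unadjusted p under 0.05, where 0.0113% and 3.19% of all genes did. DESeq2 and limma called 0 too. All 18 genes listed for the CDK4/6 and MDM2-p53 pathways in which Cdkn2a acts were tested. Of these 8 lay above 0 and 10 below, with a range of -0.08 to 0.20 on the log2 scale. Cdk4, the kinase that the Cdkn2a and Cdkn2b products bind, was the most abundant, at 116, 93.9 and 109 FPKM in mAC_Mito 1, 2 and 3, against 106, 124 and 104 in mAC 1, 2 and 3. The related kinase Cdk6 had the smallest p of the list (unadjusted p = 0.175, edgeR). It was at 1.18, 1.40 and 1.61 FPKM in mAC_Mito 1, 2 and 3, against 1.27, 1.18 and 1.13 in mAC 1, 2 and 3. Its log2 fold change was 0.20 (95% interval -0.10 to 0.50).

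The 14 Polycomb proteins and other regulators of the Cdkn2a locus split into 7 above and 7 below 0, with a median log2 fold change of 0.01. Id1, an inhibitor of helix-loop-helix factors, was the most abundant, at 74.0, 76.4 and 76.4 FPKM in mAC_Mito 1, 2 and 3, against 60.2, 84.9 and 83.9 in mAC 1, 2 and 3. Kdm6b, the demethylase that removes the Polycomb mark, had the smallest p (unadjusted p = 0.0973, edgeR). It was at 2.74, 3.48 and 3.34 FPKM in mAC_Mito 1, 2 and 3, against 2.99, 2.33 and 2.42 in mAC 1, 2 and 3, and the groups overlapped.

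In methionine salvage and polyamine synthesis, where Mtap acts, 2 genes lay above 0 and 9 below, with a median log2 fold change of -0.09 and a range of -0.13 to 0.03. The spermidine synthase Srm, the most abundant, was at 75.4, 70.8 and 79.7 FPKM in mAC_Mito 1, 2 and 3, against 81, 79.5 and 81 in mAC 1, 2 and 3. Odc1, which makes putrescine, was at 64.6, 66.4 and 68 FPKM in mAC_Mito 1, 2 and 3, against 70.5, 71.8 and 72.4 in mAC 1, 2 and 3. Its groups did not overlap, the 1 such gene of the 11 in this list, where 7.31% of all genes tested did not. Its log2 fold change was -0.13 (95% interval -0.33 to 0.07, adjusted p = 0.99992, edgeR). Among the 6 genes of the CUL3-KLHL9 ligase and Aurora B, 2 lay above and 4 below 0, from -0.09 (Klhl13) to 0.10 (Klhl21). Klhl13 had the smallest p, unadjusted p = 0.515 by edgeR. Of the 7 DMRT genes listed, Dmrt3 and Dmrtc2 had no row, and only Dmrta1 and Dmrt2 had enough counts to be tested. Dmrt2 had a log2 fold change of 0.71 with a 95% interval of -0.37 to 1.79 (edgeR).

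The machinery that cuts and loads microRNAs held the 2 list genes with an unadjusted p under 0.05 by edgeR. Over all 72 list genes DESeq2 gave 2 such genes and limma, with either pseudocount, 0. Of its 9 genes, 6 lay above and 3 below 0, with a median log2 fold change of 0.08. Ago1, an Argonaute protein, was at 3.74, 5.08 and 4.77 FPKM in mAC_Mito 1, 2 and 3, against 3.64, 3.52 and 3.71 in mAC 1, 2 and 3. The groups did not overlap, mAC_Mito 1 being just above the mAC libraries. Ago1 was the 1 such gene of the 9, where 7.31% of all genes tested did not overlap. Its log2 fold change was 0.30 (95% interval 0.04 to 0.55, unadjusted p = 0.0286, adjusted p = 0.99992, edgeR). Ago2, the Argonaute that cleaves its targets, was at 4.17, 6.60 and 5.66 FPKM in mAC_Mito 1, 2 and 3, against 4.45, 3.51 and 4.15 in mAC 1, 2 and 3. Its groups overlapped, with a log2 fold change of 0.41 (95% interval 0.05 to 0.76, unadjusted p = 0.0287, adjusted p = 0.99992, edgeR), and it is named after its values were seen. Xpo5, which exports hairpins from the nucleus, was the most abundant, at 11.8, 12.7 and 13.7 FPKM in mAC_Mito 1, 2 and 3, against 13.6, 13.5 and 13.7 in mAC 1, 2 and 3.

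**Figure D5:**
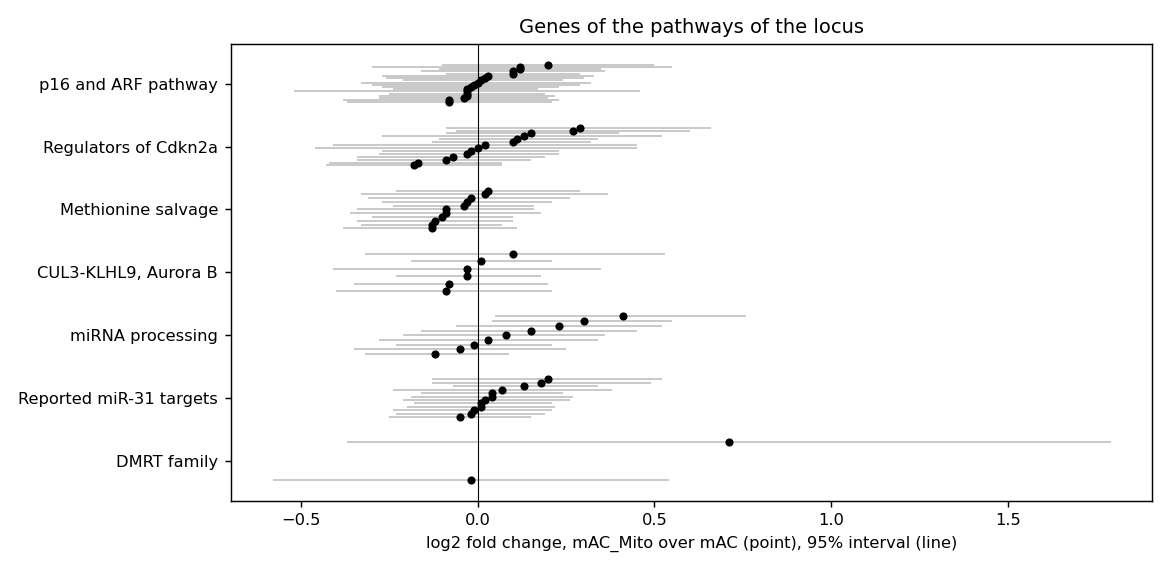
Log2 fold change of mAC_Mito over mAC (points) with the 95% interval (lines) for the 72 tested genes of the 7 lists. The intervals of Ago1 and Ago2 in microRNA processing by edgeR lie above 0, from 0.04 to 0.55 and from 0.05 to 0.76, though limma gave neither an unadjusted p under 0.05, and those of the other 70 genes include 0.

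Messages that miR-31-5p could pair with were described by the letters of its seed. A match was TCTTGCC, the reverse complement of bases 2 to 8, and a longer match was TCTTGCCA, read on the transcript strand of the longest 3′ UTR of each gene in GENCODE M21. Of 16452 genes with such a UTR, 12.9% held the shorter match and 4.08% the longer. Of the 13 reported targets listed, mostly from human studies, 12 were tested, and Stk40, Hif1an, Itga5, Fzd3 and Rasa1 held the longer match. Stk40, a serine/threonine kinase, held 3, a number reached by 4 genes in all. Hif1an, the oxygen-dependent inhibitor of HIF1A, held 1, as did the fibronectin receptor subunit Itga5. These sites are shown with the longer match in capitals (GRCm38, strand in brackets).
Stk40 site, chr4:126139672-126139701 (+): cctaggagcccTCTTGCCAgttcctctctc
Stk40 site, chr4:126140046-126140075 (+): gtggatgcccgTCTTGCCAgaaacgctgtt
Stk40 site, chr4:126140351-126140380 (+): atggggccaccTCTTGCCAgcagtagcagg
Hif1an site, chr19:44571263-44571292 (+): atggactggacTCTTGCCAtggccctggag
Itga5 site, chr15:103344858-103344887 (-): tgcatctttggTCTTGCCAgagaaccaaag

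The genes with these letters are described by their fold changes beside those of other genes, and the difference between the classes was not tested. The 599 tested genes with the longer match had a median log2 fold change of 0.013, with 54.1% above 0, and the 1307 with the shorter match alone had 0.025, with 56.5% above 0. The 12238 without a match had a median of 0.006, with 51.6% above 0. Over all 14144 tested genes with a 3′ UTR the median was 0.008, with 52.1% above 0. By edgeR 0 of the 1906 genes with either match passed an adjusted p of 0.05 and 63 had an unadjusted p under 0.05, where 1 and 475 of all 14144 did. DESeq2 and limma also called 0 of the 1906. Genes with a match have longer 3′ UTRs, with a median of 2786 bases for the longer match, against 1150 for genes with none. Among the 12 reported targets tested 9 lay above and 3 below 0, from -0.05 (Rasa1) to 0.20 (Mmp16). Stk40 was at 9.08, 8.47 and 10.0 FPKM in mAC_Mito 1, 2 and 3, against 8.50, 9.26 and 8.99 in mAC 1, 2 and 3. The small GTPase Rhoa, the most abundant of the list and without a match in its longest UTR, was at 70.1, 66.5 and 72.3 FPKM in mAC_Mito 1, 2 and 3, against 63.5, 73.4 and 72.8 in mAC 1, 2 and 3. Lats2, a kinase of the Hippo pathway, had the smallest p of the list (unadjusted p = 0.178, edgeR), with a log2 fold change of 0.13 (95% interval -0.07 to 0.34).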

How the data were processed

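Poly(A)-selected, paired-end libraries of mouse chondrocytes were analysed, 3 described as mAC_Mito and 3 as mAC. The authors deposited whole-number read counts per gene and FPKM for each library, per the file headers. Bowtie 0.12.2, StringTie 1.3.0, HISAT2 2.0 and the build mm8 appear, without roles, per the submitters' processing notes. The table's coordinates are those of GRCm38: 24110 of 26902 identifiers shared with GENCODE M21 had the same chromosome, start and end. How reads were assigned, and whether strand was used, is not given in the sources used here.

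Counts were compared with edgeR 4.0.16 (quasi-likelihood test, filterByExpr, TMM, R 4.3.3), two-sided, with Benjamini-Hochberg adjustment over 17645 genes and a threshold of 0.05. Intervals follow from the F statistic. DESeq2 1.42.0 and limma 3.58.1 were alternatives. Reads behind an FPKM were computed from gene length and 1 factor per library, the median over 473 to 547 single-transcript genes of at least 2000 counts, of which 92.1% to 92.5% lay within 0.2% of it. Rounding this number up gave the deposited count for 87.7% to 89.1% of single-transcript genes with 1 to 30 counts.

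Members, gene lists and rules were chosen with earlier results of these data known. Named genes are the members, overlapping rows, rows of at least 1 FPKM within 1 Mb, the nearest profiles, and in each list the most abundant gene and that with the smallest p. Other genes given with values were chosen after their values or sites were seen. They are the hosts besides Gm49890, Igsf1, Gm20716, Gm49510, Gm49891, Wincr1, Gm12602, Ifnz, Ifnb1, Dmrt2, Ago2 and the targets whose sites are shown. Sequences are from RefSeq (GRCm38.p6) and GENCODE M21. One gene of a list is not reported here.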

Additional observations from a re-analysis of the deposited data

How the results depend on the processing

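In all, 2 genes passed an adjusted p of 0.05 with edgeR on all 6 libraries, and the count moved with the method and the libraries used. It was 5 with DESeq2, 1 with limma on log2(FPKM + 1), and 0 without a filter on low counts, where 760 genes had an unadjusted p under 0.05. Leaving out 1 library at a time gave 0 to 4. It was 0 without mAC_Mito 1 or mAC_Mito 3 (1225 and 277 genes at an unadjusted p under 0.05) and 4 without mAC_Mito 2 or mAC 3. It stayed at 2 with size factors scaled as in DESeq2, limma on log2(FPKM + 0.1), without mAC 1 and without mAC 2. With the replicate number as a block it was also 2, and the block changed no call of a neighbour. Same-numbered libraries did not deviate together in every pair (correlations of 0.124, -0.06 and -0.012), so the numbers are not taken to pair them. For Gm49890, whose own counts chose the locus, no test is read. Its log2 fold change ran from 1.67, on log2(FPKM + 1), to 10.59, since it depends on the constant added to 0. No neighbour passed in any alternative. The sign turned for Klhl9 without mAC_Mito 3 (0.02) or mAC 3 (0.00), for Mtap without mAC 1 (0.00), for Dmrta1 without mAC_Mito 3 (0.13) or mAC 2 (0.09), and for Mrpl48-ps without mAC_Mito 2 (0.16), mAC 1 (0.02) or mAC 2 (0.05). Over the 6 libraries left out in turn, Dmrta1 ran from -0.21 to 0.13 and Mrpl48-ps from -0.25 to 0.16. Cdkn2a ran from 0.04 to 0.46. Cdkn2a and Dmrta1 had 107 to 419 counts a library, and differences within their intervals are not excluded. Larger ones can also miss the threshold, as Gm12602 did at -0.85 (adjusted p = 0.99992, edgeR).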
